A study of Mus musculus with 18 samples.

Results

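The long noncoding RNAs described here are of 2 kinds. The nuclear or regulatory RNAs are Neat1, Malat1, Tug1 and Miat. The RNAs whose introns carry small nucleolar RNAs (snoRNAs) are Snhg11, Snhg17, Snhg1 and Gas5. All 8 were chosen by name. They were looked up among the transcript clusters (the probe sets that stand for a transcript) whose array annotation names a single gene. Of these, 7 had such a cluster among the 22180 genes measured. The cluster that named Gas5 named a second gene as well, so Gas5 has no value here. Where several clusters named a member, the cluster of highest mean level was taken. Its mean was 11.4 against 7.61 for Malat1, 6.85 against 5.91 for Snhg11, and 8.16 against 6.24 and 5.62 for Snhg17. All levels are log2 array signals, so a difference of 1 is a doubling, and a level is compared only with levels of the same cluster. The member list was drawn up with results of these arrays in view, among them the Neat1 difference in the stressed pituitary.

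The data are 18 Affymetrix Mouse Gene 2.0 ST arrays of tissue RNA, 6 for each of 3 tissues: hypothalamus, pituitary gland and ovary. The mice were female BABL/c animals (strain spelled as labelled) from 10 littermate pairs, 1 mouse of each pair in the control group and 1 in the stress group. They were 6 weeks old when chosen and were superovulated at 9 weeks in both groups. Stress was road transport over 1000 km, for nearly 10 h at 50 km per hour, and the controls were housed in the same laboratory. In each group and tissue 1 array held the mouse with the most oocytes (high), 1 the mouse with the fewest (low) and 1 a pool of the other 8 mice. A group of 3 arrays therefore mixes 2 single mice with a pool, and its spread is not that of 3 animals. In whole tissue, fewer cells of a type and less RNA per cell cannot be told apart.

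Neat1 is the scaffold of paraspeckles, nuclear bodies that hold back RNAs and proteins, and it is known to be induced by many kinds of cell stress. Malat1 is transcribed from the neighbouring gene and resides in nuclear speckles, the domains rich in splicing factors. Miat, also called Gomafu, is a nuclear RNA known from neurons, and Tug1 is a widely expressed regulatory RNA. The host genes are spliced to release snoRNAs, which guide chemical modification of ribosomal and other RNAs. The spliced remainder is for many hosts removed by nonsense-mediated decay, so a host RNA and its snoRNAs can have different levels. Host genes commonly start within a run of pyrimidines, the feature that also marks ribosomal protein genes.

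The bases around the annotated starts are shown for 5 members, because such runs are common at host genes and because Snhg17 and Snhg11 are neighbours. Each sequence runs 5′ to 3′ from 50 bases before the start to 50 after it, from RefSeq on build GRCm38.p6. Capitals mark the longest run of C and T that touches the 10 bases on either side of the start.
Snhg1: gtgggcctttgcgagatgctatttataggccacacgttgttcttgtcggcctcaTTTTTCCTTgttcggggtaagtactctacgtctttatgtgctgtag
Snhg17: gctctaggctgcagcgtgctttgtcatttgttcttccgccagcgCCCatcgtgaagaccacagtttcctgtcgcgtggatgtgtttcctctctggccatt
Snhg11: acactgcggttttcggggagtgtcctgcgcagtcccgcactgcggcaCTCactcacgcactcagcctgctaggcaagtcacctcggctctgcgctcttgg
Malat1: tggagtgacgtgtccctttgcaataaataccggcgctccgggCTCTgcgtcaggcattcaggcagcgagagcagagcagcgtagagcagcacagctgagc
Tug1: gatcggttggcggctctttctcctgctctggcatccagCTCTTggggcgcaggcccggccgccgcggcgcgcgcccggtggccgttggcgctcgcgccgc
Snhg1 lies at chr19:8723437-8723536 on the plus strand and Malat1 at chr19:5802623-5802722 on the minus strand. Snhg17 lies at chr2:158361473-158361572 on the minus strand, shown at the first of its 2 annotated starts, and Snhg11 at chr2:158375663-158375762 on the plus strand. Tug1 lies at chr11:3648765-3648864 on the minus strand.

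Of the marked runs in the 5 windows shown, that of Snhg1 was the longest, at 9 bases, from position 5 to 13 after the start. This length was reached by 9.55% of the 32851 start windows searched, whose median run was 4. Tug1 and Snhg17 hold longer runs of C and T farther from their starts, which were not counted. The run of Snhg11 was 3 bases, reached by 82.9% of windows. Snhg17 had 3 bases at its first start and 6 at its second, a length reached by 29.2%. The marked runs of Snhg17 and Snhg11 ended before the start, at positions -4 and -1. No host start shown thus lay within its marked run. The runs of Malat1 and Tug1 were 4 and 5 bases, and that of Miat, whose window is not printed, was 7. Snhg17 and Snhg11 are transcribed away from each other from starts 14191 bases apart, with 0 genes lying wholly between them. Neat1 and Malat1 on chromosome 19 also have 0 genes wholly between them. The annotation places 8 snoRNA genes inside Snhg1, 8 inside Gas5, 2 inside Snhg17 and 2 inside Snhg11.

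Marker genes placed the arrays in their labelled tissues: 7 of 7 hypothalamus markers, 7 of 7 pituitary markers and 7 of 8 ovary markers were higher in all 6 arrays of their tissue than in any other array. The pools also carried markers of other tissues, and some single hypothalami carried pituitary markers. The summed signal of the 8 ovary markers (as log2) was 11.94 in the stressed pituitary pool against 8.22 to 8.38 in single pituitaries, with 7 of 8 markers above every single mouse, and 11.02 in the stressed hypothalamus pool against 8.00 to 8.50, with 4 of 8 above. In the control pituitary pool it was 8.76, with 2 of 8 above. The 7 pituitary markers reached 11.59 and 12.13 in the control and stressed ovary pools against 7.28 to 7.68 in single ovaries. In hypothalamus they were at 8.28 to 10.17 in single mice, with the control and stressed pools inside that range at 9.15 and 8.64. Prl was at 9.26 in the control low and 8.68 in the stressed high hypothalamus. It was at 5.53 in the control high and 6.55 in the stressed low. The 3 oligodendrocyte markers measured reached 8.11 and 8.24 in the pituitary pools against 6.87 to 7.23 in single mice. None of the 7 blood markers had a cluster of its own, so blood was not checked.

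The nuclear or regulatory RNAs had different tissue profiles. Neat1 was highest in ovary, with a lowest, median and highest level of 7.64, 8.69 and 9.10 there, against 6.02, 6.15 and 6.91 in hypothalamus and 5.87, 6.27 and 8.17 in pituitary. The ovary and hypothalamus ranges were apart, while the stressed pituitary pool, at 8.17, lay within the ovary range. The ovary mean exceeded the hypothalamus mean 4.81-fold (log2 difference 2.26, SE 0.26, limma adjusted p = 4.68e-07) and the pituitary mean 3.92-fold (log2 1.97, SE 0.26, adjusted p = 4.35e-06). Hypothalamus and pituitary were neighbours in this order that did not differ beyond their spread (log2 0.29, SE 0.26, adjusted p = 0.416). Without the pools the ovary excess of Neat1 over pituitary was 2.55 on the log2 scale.

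Malat1 was lower in hypothalamus, at 9.82, 10.62 and 11.47, than in pituitary (11.28, 11.62 and 12.21) or ovary (11.39, 11.76 and 11.94). The low mice of both groups brought the hypothalamus range up into those of the other tissues. Pituitary exceeded hypothalamus 2.00-fold (SE 0.20 on the log2 scale, adjusted p = 0.000451) and ovary exceeded it 1.98-fold (log2 0.98, SE 0.20, adjusted p = 0.000357). Ovary and pituitary differed by -0.01 (adjusted p = 0.968).

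Tug1 was level across tissues, with means of 8.89 ± 0.52 in hypothalamus, 8.74 ± 0.47 in pituitary and 8.89 ± 0.41 in ovary (SD, n = 6 arrays each). Its ovary minus hypothalamus difference had a 95% confidence interval of -0.45 to 0.45. Miat fell in steps from hypothalamus to ovary. Its levels were 5.48, 5.61 and 5.96 in hypothalamus, 4.37, 5.14 and 5.40 in pituitary, and 3.27, 3.67 and 4.29 in ovary, and no range overlapped the next. The steps were 1.53-fold from hypothalamus to pituitary (log2 -0.61, SE 0.17, adjusted p = 0.00659) and 2.57-fold from pituitary to ovary (log2 -1.36, SE 0.17, adjusted p = 1.92e-06).

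Among the snoRNA hosts, Snhg11 had by far the widest tissue range. Its lowest, median and highest levels were 9.25, 9.89 and 9.97 in hypothalamus, 5.0, 5.37 and 7.09 in pituitary, and 4.84, 5.15 and 5.31 in ovary. Snhg11 is known as an RNA of neurons, and the 6 hypothalamus arrays lay above all 12 others. The hypothalamus mean was 15.2-fold above pituitary (pituitary minus hypothalamus log2 -3.93, SE 0.30, adjusted p = 3.43e-09) and 24.5-fold above ovary (log2 -4.61, SE 0.30, adjusted p = 1.29e-10). The pituitary difference was -4.72 without the pools, whose 2 pituitary arrays, at 7.09 and 6.73, were the highest of that tissue. The second Snhg11 cluster gave smaller differences of the same sign, -1.37 and -1.72.

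Snhg17 and Snhg1 ran the other way, lowest in hypothalamus. Snhg17 was at 6.77, 7.37 and 7.86 in hypothalamus, 7.79, 8.61 and 9.41 in pituitary, and 8.04, 8.75 and 9.15 in ovary. The bottom of the pituitary range overlapped the top of the hypothalamus range, and the ovary range lay above it. Snhg17 was 2.31-fold higher in pituitary (log2 1.21, SE 0.22, adjusted p = 0.00018) and 2.54-fold higher in ovary (log2 1.34, SE 0.22, adjusted p = 3.75e-05). Snhg1 was at 6.25, 6.43 and 6.73 in hypothalamus, 7.59, 7.89 and 8.48 in pituitary, and 7.30, 7.61 and 8.03 in ovary. No hypothalamus array reached the other tissues, and the differences were 2.85-fold for pituitary (log2 1.51, SE 0.14, adjusted p = 4.39e-08) and 2.32-fold for ovary (log2 1.21, SE 0.14, adjusted p = 4.2e-07). Between ovary and pituitary neither differed beyond its spread, with adjusted p of 0.672 for Snhg17 and 0.097 for Snhg1, although Snhg1 passed at 0.0345 after quantile normalization. Thus neighbouring genes Snhg17 and Snhg11 had opposite tissue orders.

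**Figure D1:**
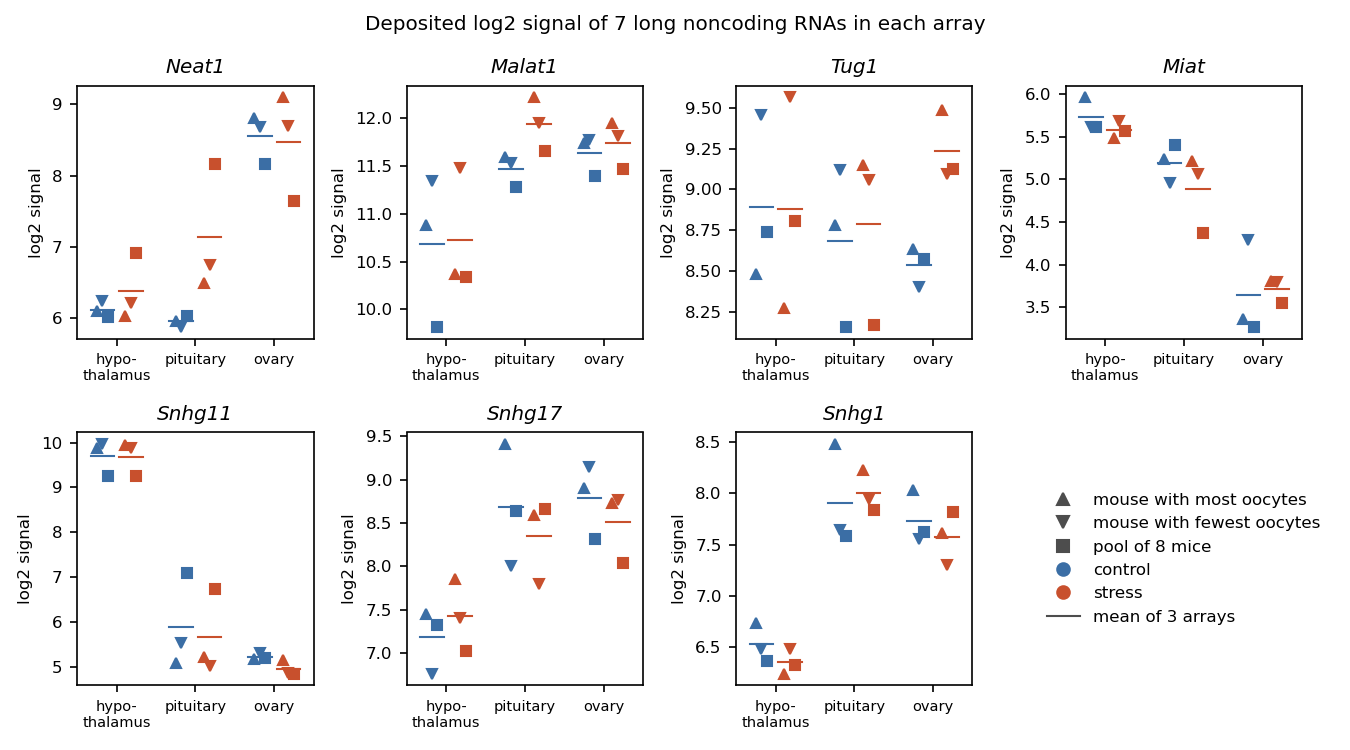
Level of the 7 measured members (log2 signal, vertical axis) on each of the 18 arrays, by tissue. Colours give the treatment, shapes the ovulation class, and lines the mean of 3 arrays. Snhg11 stands near 10 in hypothalamus and near 5 elsewhere, Neat1 is highest in ovary apart from the stressed pituitary pool at 8.17, and Miat descends from hypothalamus to ovary.

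In all, 5 of 7 members passed between pituitary and hypothalamus, where 39.5% of all genes did. Between ovary and hypothalamus 6 of 7 passed, against 47.2% of genes, and between ovary and pituitary 2 of 7, Neat1 and Miat, against 41% of genes. Levels did not overlap for Miat, Snhg11 and Snhg1 between pituitary and hypothalamus (20.5% of genes), for all measured members but Malat1 and Tug1 between ovary and hypothalamus (31.9%), and for Miat alone between ovary and pituitary (21.8%).

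Transport stress was compared with control within each tissue, the question named in the study's title. In limma 0 of 22180 genes (0%) passed in any tissue, members included. Without adjustment, 245 genes (1.1%) in hypothalamus, 294 (1.33%) in pituitary and 592 (2.67%) in ovary had p under 0.05. The median SE of a difference was 0.23, 0.27 and 0.21 on the log2 scale in the same order of tissues.

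In the pituitary, Neat1 stood at 5.95 (high), 5.87 (low) and 6.03 (pool) in controls and at 6.50, 6.74 and 8.17 in stressed mice. All 3 stressed arrays lay above all 3 controls, the pool farthest. The stress minus control difference was 0.54 in high mice, 0.87 in low mice and 2.14 in pools, with a mean of 1.18 (SE 0.41, 2.27-fold), the 18th largest of 22180 genes. This difference was known when the member was chosen, so it is a description and has no test. Without the pools it was 0.71. The stressed pool was also the pituitary array with ovary markers: Cyp11a1, the first enzyme of steroid synthesis, was at 11.34 there against 3.51 to 5.31 in the other pituitary arrays. Foxl2, a factor of granulosa cells and also of pituitary gonadotropes, was at 6.50 there and 6.55 in the control pool, against 5.77 to 6.35 in single mice. Neat1 itself is high in ovary, and the part of these markers in the pool's value was not tested.

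Malat1, the neighbour of Neat1, showed the same order in pituitary: 11.59, 11.53 and 11.28 in high, low and pooled controls and 12.21, 11.94 and 11.66 in the stressed mice. The lowest stressed array, the pool at 11.66, lay just above the highest control at 11.59. The differences were 0.63, 0.42 and 0.38, with a mean of 0.47 (SE 0.23, 95% confidence interval -0.06 to 1.01, 1.39-fold). This interval includes 0. Its fit leaves out the ovulation class, so it also holds the spread between classes. A mean of 0.52 remained without the pools. The second Malat1 cluster gave a mean of 0.69, but its groups overlapped. Its pools were level, at 8.44 in control and 8.45 under stress, and its stressed high mouse was at 8.08. The other members were mixed: Snhg17 differed by -0.82, -0.21 and 0.03 in high, low and pooled pituitaries, and Snhg11 by 0.15, -0.51 and -0.36. Miat was level in single mice (-0.02 and 0.11) and lower in the stressed pool by -1.03. The members without overlap were Malat1 and Neat1, the latter chosen with this difference known, so nothing is read from their count. The share of all genes without overlap was 6.08%.

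In the ovary Tug1 had the largest stress difference of the members. Its levels were 8.64 (high), 8.40 (low) and 8.57 (pool) in controls and 9.49, 9.09 and 9.13 under stress. The groups did not overlap, and the differences of the 3 classes, 0.85, 0.69 and 0.56, were of like size in single mice and pools. Their mean was 0.70 (SE 0.18, 95% confidence interval 0.28 to 1.12, 1.62-fold). It failed the correction over all genes (limma adjusted p = 0.999). The difference lay between 0.57 and 0.77 over all alternatives tried, with 0.499 as the lowest adjusted p. These alternatives reuse the same arrays, and the members were chosen with earlier results of these data known. Tug1 differed by 0.37, -0.06 and 0.01 in pituitary and -0.20, 0.10 and 0.07 in hypothalamus. The ovary effect minus the hypothalamus effect was 0.71 (95% confidence interval -0.19 to 1.61) and minus the pituitary effect 0.59 (-0.31 to 1.5), so a difference between tissues was not shown.

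Snhg11 was slightly lower in the stressed ovary, at 5.15, 4.85 and 4.84 against 5.16, 5.31 and 5.2 in controls. Its groups were barely apart, the high mice almost meeting, and the mean difference was -0.28 (SE 0.17, adjusted p = 0.999). Snhg17 was lower in each class, by -0.18, -0.38 and -0.29, with overlapping groups. Neat1 differed by 0.29, 0.02 and -0.53 and Malat1 by 0.20, 0.04 and 0.08, with no common direction for Neat1. Tug1 and Snhg11 were the 2 of 7 members without overlap in ovary, where 8.77% of genes had none.

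In the hypothalamus no member separated the groups (0 of 7, against 4.54% of genes). Neat1 was at 6.09, 6.24 and 6.02 in controls and 6.03, 6.22 and 6.91 in stressed mice, level in single mice and higher by 0.89 in the pool. That pool was the hypothalamus array with ovary markers at 11.02, and their part in its Neat1 level was not tested. Malat1 differed by -0.51, 0.13 and 0.53 and Snhg17 by 0.40, 0.64 and -0.30, each with a change of sign between classes. When the stress effect of one tissue was set against that of another, limma called 0 genes. Without adjustment 773 genes (3.49%) had p under 0.05 for pituitary minus hypothalamus, 496 (2.24%) for ovary minus hypothalamus and 805 (3.63%) for ovary minus pituitary.

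**Figure D2:**
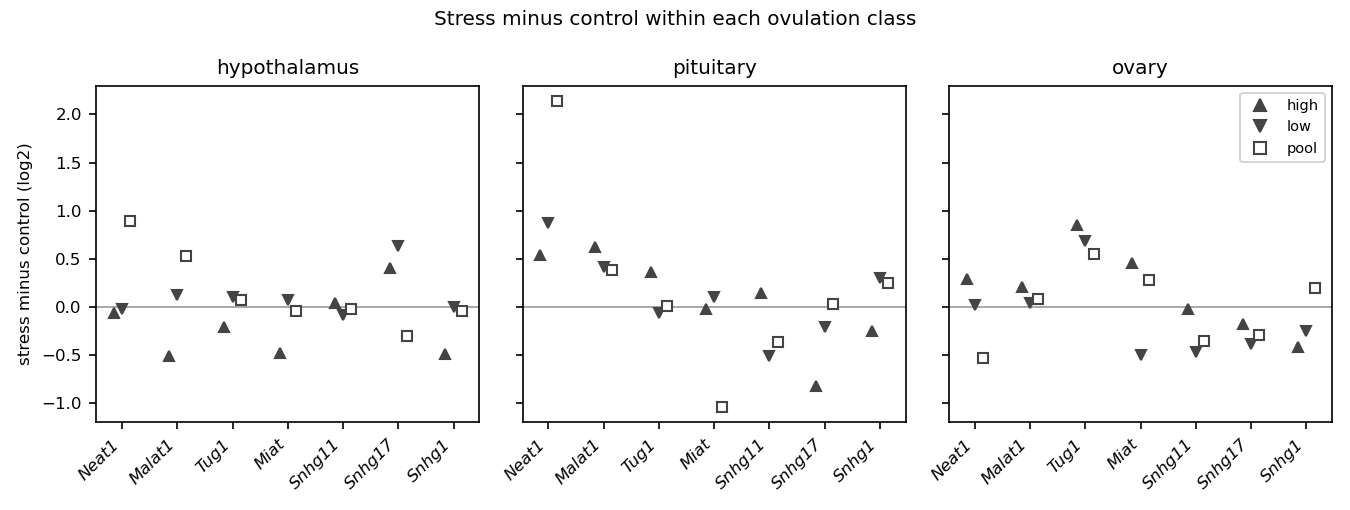
Stress minus control difference of each member (log2, vertical axis) by ovulation class (high, low, pool) and tissue, with a line at 0. In pituitary the 3 Neat1 points lie at 0.54, 0.87 and 2.14, and in ovary the 3 Tug1 points lie between 0.56 and 0.85.

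Genes that work with these RNAs were counted for the same comparison, and 0 passed in any list or tissue. Over all genes, 44.5%, 43.6% and 46.8% were higher under stress in hypothalamus, pituitary and ovary, with medians of -0.02, -0.04 and -0.02. In pituitary, 12 of 15 measured paraspeckle proteins lay higher (median 0.15), led by Sfpq, a core paraspeckle protein, at 0.43 (SE 0.21). Of the nuclear speckle proteins 15 of 19 lay higher there (median 0.13), with Son, a speckle scaffold, at 0.50 (SE 0.21). In the list of other nuclear or regulatory lncRNAs it was 16 of 19 (median 0.25), with Xist at 0.51 (SE 0.28). That list also holds Ptprv, a receptor phosphatase gene, at 0.54 (SE 0.23). In ovary the corresponding counts were 8 of 15, 14 of 19 and 9 of 19, and in hypothalamus 7 of 15, 9 of 19 and 9 of 19. The pituitary rise was small or absent in the pools. The medians in high mice, low mice and pools were 0.18, 0.16 and 0.05 for the paraspeckle proteins. They were 0.30, 0.16 and -0.10 for the speckle proteins, and 0.24, 0.30 and -0.12 for the other lncRNA list.

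For the partners of the host RNAs the counts were as follows. Of the 15 other snoRNA-host lncRNAs measured, 4 lay higher in pituitary (median -0.16) and 3 in ovary (median -0.15), against 6 in hypothalamus. Snhg3 differed by -0.31 (SE 0.28) in pituitary and -0.37 (SE 0.20) in ovary, and Dancr by -0.35 (SE 0.19) in ovary. Among proteins of snoRNA particles 4 of 18 lay higher in pituitary (median -0.13), although Naf1, an assembly factor, was at 0.55. Nonsense-mediated decay factors lay higher in 3, 7 and 7 of 15 in hypothalamus, pituitary and ovary, with Etf1, a translation release factor, at 0.49 and Smg1, the kinase of the pathway, at 0.42 in ovary. Protein-coding snoRNA hosts lay higher in 12, 5 and 9 of 18. None of these values passed after adjustment.

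High and low ovulators were compared with treatment in the model. Each tissue had 2 high and 2 low mice, and limma called 0 genes in each, with 4275 (19.3%), 1160 (5.23%) and 2382 (10.7%) at an unadjusted p under 0.05 in hypothalamus, pituitary and ovary. In hypothalamus Tug1 was at 8.48 and 8.28 in the high mice (control, stress) and at 9.46 and 9.56 in the low mice. The low mice of both groups were higher, by 0.98 and 1.29, and the mean difference was -1.13 (SE 0.17, 2.20-fold, adjusted p = 0.135). It passed at 0.0356 when only genes at or above the median level were tested, a setting that called 875 genes. Malat1 went the same way, at 10.88 and 10.37 in high mice and 11.34 and 11.47 in low mice (difference -0.79, SE 0.26, adjusted p = 0.189). The second Malat1 cluster gave -1.25 (adjusted p = 0.134).

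The Snhg17 cluster used went in the opposite direction to Tug1, higher in the high ovulators of hypothalamus and pituitary. Its hypothalamus levels were 7.46 and 7.86 in high mice against 6.77 and 7.40 in low mice (difference 0.57, SE 0.25, adjusted p = 0.268). In pituitary they were 9.41 and 8.59 against 8.00 and 7.79. The control high mouse was the highest, and the differences within control and stress were 1.41 and 0.80 (mean 1.10, SE 0.26, 2.15-fold, adjusted p = 0.900). Of the other Snhg17 clusters, 1 gave 0.50 and 0.85 in these tissues and 1 gave -0.07 and -0.01, so the difference rests on the cluster. Snhg1 in pituitary was at 8.48 and 8.23 in high mice against 7.64 and 7.94 in low mice (difference 0.56, SE 0.23, adjusted p = 0.900). In ovary the 2 largest member differences were -0.46 for Miat and 0.39 for Snhg1. Members without overlap were 4 of 7 in hypothalamus (Neat1, Malat1, Tug1 and Snhg17), 3 of 7 in pituitary (Miat, Snhg17 and Snhg1) and 2 of 7 in ovary (Neat1 and Snhg1). The shares of all genes were 49.6%, 32.8% and 35.8%, so the members' counts were near the background.

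Pools and single mice were compared because the pools sit in both groups. In hypothalamus Malat1 was at 9.82 and 10.34 in the pools (control, stress) against 10.37 to 11.47 in single mice, and Snhg11 at 9.27 and 9.25 against 9.88 to 9.97. Both pools lay below every single mouse for both RNAs, by a difference of -0.94 (SE 0.22, adjusted p = 0.0428) and -0.66 (SE 0.14, adjusted p = 0.0282). These were 2 of 7 members called, against 12.2% of genes. Leaving out either low mouse or either pool ended both calls, with adjusted p of 0.0610 to 0.382 for Malat1 and 0.0628 to 0.271 for Snhg11. The Malat1 difference was -0.58 without the control pool and -1.30 without the stressed pool, while that of Snhg11 stayed between -0.64 and -0.69 in these fits. The same pools had higher oligodendrocyte markers than every single hypothalamus (3 of 3 in each pool, summed 11.14 and 10.95 against 10.18 to 10.61). Hypothalamus markers were mixed, with 3 of 7 above every single mouse in each pool. Hcrt (orexin) was at 9.79 and 9.88 against 8.01 to 8.32. Pmch was lower, at 10.70 and 10.98 against 11.12 to 11.63, as was Avp, at 11.16 and 11.18 against 11.67 to 12.08. The part of these markers in the Malat1 and Snhg11 values was not tested. The second Malat1 cluster was higher in the pools by 1.59 (adjusted p = 0.0119), opposite to the cluster used, so the direction for Malat1 rests on the cluster.

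In pituitary Snhg11 was at 7.09 and 6.73 in the pools against 5.0 to 5.52 in single mice, higher by 1.71 (SE 0.21, 3.27-fold, adjusted p = 0.00572). It kept that call whichever array was left out. The oligodendrocyte markers were higher in the same pools (8.11 and 8.24 against 6.87 to 7.23, 3 of 3 in each), and 4 and 3 of 7 hypothalamus markers lay above every single mouse. Among these Calb2 was at 5.19 and 8.46 in the control and stressed pools against 3.39 to 3.74, and Trh at 5.44 and 6.92 against 3.98 to 4.73. Avp was lower in both pools, at 8.33 and 8.72, where the lowest single mouse was at 9.74. Pmch was at 6.67 in the control pool but at 3.60 in the stressed pool, below every single mouse. The median excess of the 7 markers over the mean of single mice was 0.94 in the control pool and -0.20 in the stressed pool. The summed hypothalamus markers, dominated by Avp, were at 9.34 and 10.01 against 9.98 to 11.15. The part of these markers in the Snhg11 value was not tested. The second Snhg11 cluster differed by -0.39 (adjusted p = 0.216). Tug1 was lower in the pituitary pools, at 8.16 and 8.17 against 8.78 to 9.15 (difference -0.87, SE 0.19, adjusted p = 0.0249). Leaving out either low mouse or either pool ended the Tug1 call, with adjusted p of 0.0513 to 0.153. These were 2 of 7 members called, against 16.9% of genes.

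In ovary Neat1 was at 8.17 and 7.64 in the pools against 8.68 to 9.10 in single mice, and Snhg17 at 8.32 and 8.04 against 8.73 to 9.15. Both pools were again below every single mouse, by -0.92 for Neat1 (SE 0.19, adjusted p = 0.0302) and -0.71 for Snhg17 (SE 0.13, adjusted p = 0.0233), 2 of 7 members called against 13.1% of genes. Leaving out the control or the stressed pool ended these calls, with adjusted p of 0.133 and 0.265 for Neat1 and 0.251 and 0.202 for Snhg17. The Neat1 difference was then -1.26 and -0.57, while that of Snhg17 stayed at -0.71. The 2 other Snhg17 clusters gave -0.66 (adjusted p = 0.102) and 0.38 (adjusted p = 0.177). The same pools carried pituitary markers, 5 and 7 of 7 above every single ovary. Of the ovary markers, 4 of 8 lay above every single ovary in each pool. Among these, Zp3 of the oocyte coat was at 9.39 in both pools against 6.56 to 7.46, and the granulosa cell hormone gene Amh at 7.72 and 7.29 against 5.41 to 6.37. Other follicle markers were not higher. Gdf9 was at 5.88 and 5.51 against 5.34 to 6.11, and Foxl2 was lower, at 7.96 and 8.07 against 8.23 to 8.50. The part of these markers in the Neat1 and Snhg17 values was not tested. Neat1 was thus lower in the ovary pools but higher by 0.84 in the pituitary pools (adjusted p = 0.119), of which the control pool was at 6.03 and the stressed pool at 8.17. That Neat1 difference was 1.55 without the control pool (adjusted p = 0.0266) and 0.12 without the stressed pool (adjusted p = 0.839). Snhg1 showed little difference, -0.14, -0.36 and 0.10 in the 3 tissues. Members without overlap between pools and single mice numbered 2, 2 and 3 of 7, against 36.7%, 43.1% and 37.1% of genes.

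**Figure D3:**
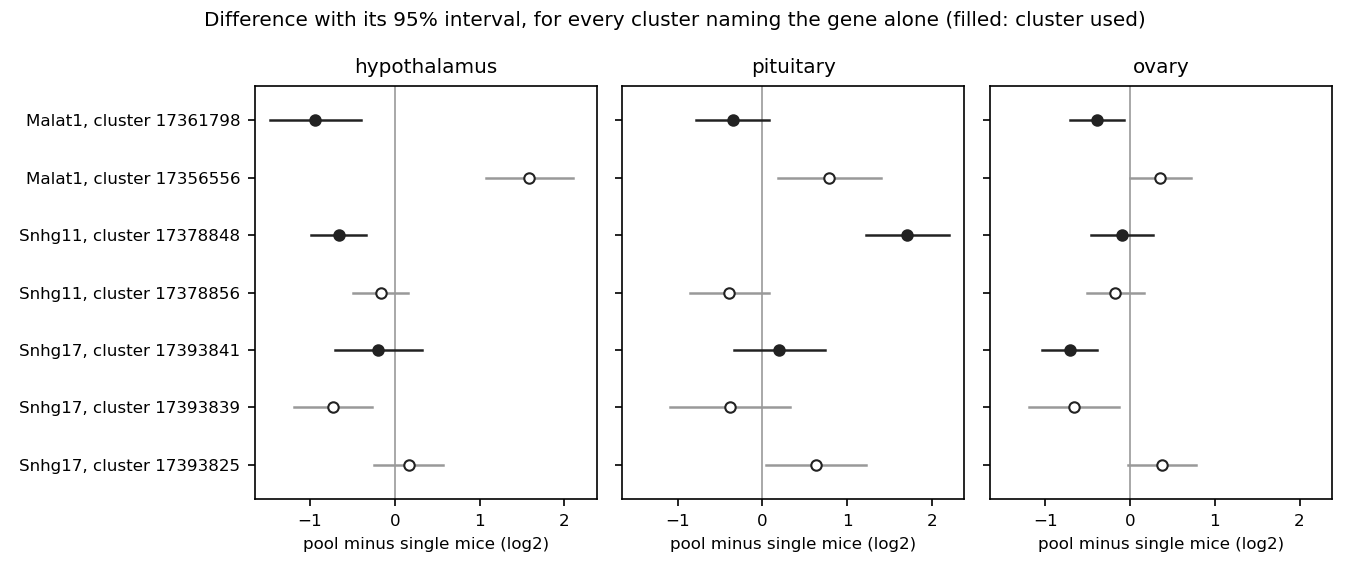
Pool minus single-mouse difference (log2) of every cluster that names Malat1, Snhg11 or Snhg17 alone, by tissue (horizontal axis). Points are differences, filled for the cluster used, and bars 95% confidence intervals. Clusters of one gene disagree in sign for Malat1 in hypothalamus (-0.94 and 1.59) and for Snhg11 in pituitary (1.71 and -0.39).

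The snoRNAs released by such hosts were examined where the array measured them. Genes typed as snoRNA in the gene table numbered 80, of which only 2 belong to the hosts here by name: Snord22, inside Snhg1, and Snord47, inside Gas5. Snord22 was at 6.24 and 6.29 in the hypothalamus pools against 11.49 to 12.41 in single mice, lower by -5.74. In pituitary and ovary the pools lay lower by -4.89 and -5.21. Snhg1, which carries it, differed by only -0.14, -0.36 and 0.10 in the same arrays. Snord47 was lower in the pools by -2.50, -2.51 and -2.04 in hypothalamus, pituitary and ovary. Of all 80 snoRNA genes, 52, 45 and 51 were called lower in the pools and 6, 6 and 7 higher, with medians of -1.19, -1.02 and -1.13, directions that also held after quantile normalization and median centring. Among the 4 measured genes of the histone list, kept as a sign of RNA quality, H4c9 and H4c8 were lower and H1f2 higher in both pools than in every single mouse of each tissue. In ovary H4c8 was at 2.33 and 2.56 in the pools against 4.37 to 5.06, and H1f2 at 9.67 and 9.60 against 8.05 to 8.49. The part of RNA quality in the snoRNA values was not tested.

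Between single mice the snoRNAs were higher in high than in low ovulators in 72 of 80 genes in hypothalamus (median 0.56) and 78 of 80 in pituitary (median 0.60), against 44 of 80 in ovary (median 0.03), with 0 called in each. The direction the Snhg17 cluster used showed in those 2 tissues was thus the direction of most snoRNAs. Under stress, 76 of 80 lay lower in ovary (median -0.49), again with 0 called. There the array medians were 9.45, 9.74 and 7.41 in the high, low and pooled controls and 8.75, 8.66 and 7.23 in the stressed mice, so the single mice differed more than the pools.

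Genes most like each member were taken from 11089 genes at or above the median level, by Pearson correlation over 18 arrays after removing tissue means. The arrays come from 4 mice and 2 pools, so these values are descriptions. Snhg17 was most like the snoRNA genes Snora73b (0.88) and Snord71 (0.88), which were at 0.96 and 0.94 over the 12 arrays of single mice. The other 2 Snhg17 clusters correlated with Snora73b at 0.82 and -0.09. Tug1 was most like Wac, an adaptor of histone ubiquitination, at 0.96 (0.97 in single mice), followed by Mtmr6 and Tgoln1, each at 0.95. With the median of the snoRNA genes Tug1 correlated at -0.81 in single mice and 0.09 over 18 arrays. The Snhg17 cluster used was at 0.76 and 0.52. The part of the snoRNA shift in the Tug1 differences was not tested. Malat1 was most like Rbm26 (0.90), Ccdc88a (0.89) and Rchy1 (0.88). Malat1 and Tug1 correlated with each other at 0.60 (0.76 in single mice).

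**Figure D4:**
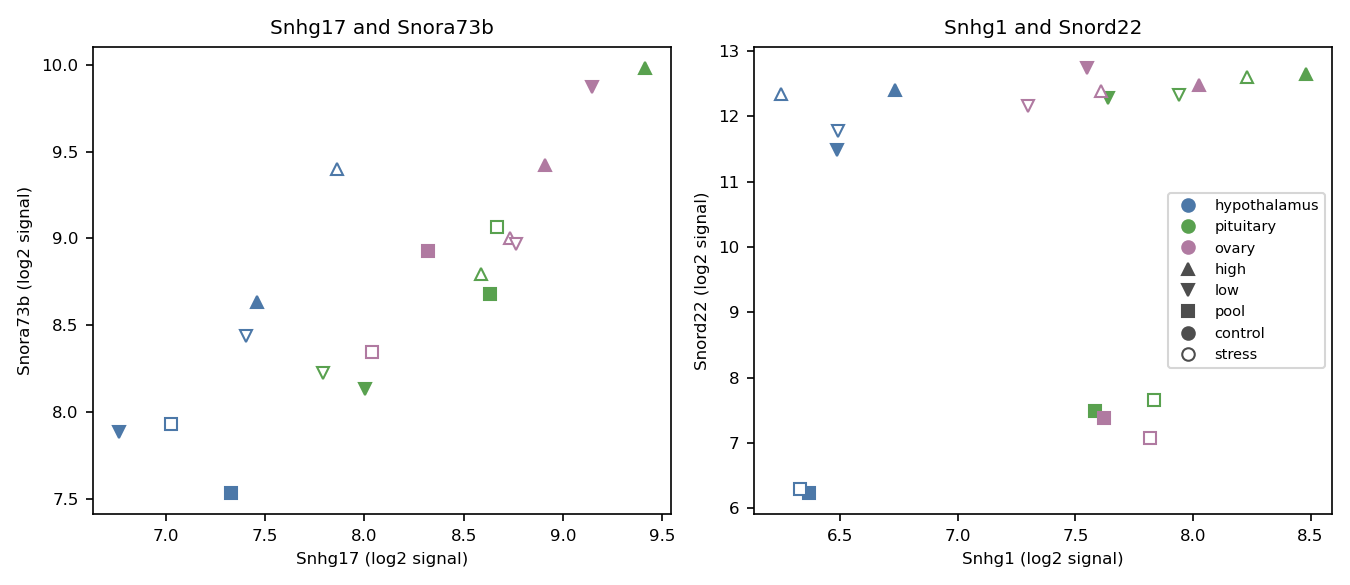
Level of a host RNA (log2 signal, horizontal axis) against that of a snoRNA (log2 signal, vertical axis) on the 18 arrays, Snhg17 with Snora73b on the left and Snhg1 with Snord22, which lies inside it, on the right. Colours give the tissue, shapes the ovulation class, and filled or open symbols control or stress. Snhg17 and Snora73b rise together (0.88 after removing tissue means), while Snord22 is above 11 in every single mouse and between 6.24 and 7.66 in the pools at like Snhg1 levels.

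Neat1 was most like Adamts12 (0.87), Rai14 (0.86) and Ptgfr (0.86), but in single mice these values were 0.08, 0.64 and 0.23. Ptgfr, the receptor for prostaglandin F2 alpha, was at 10.13 to 10.92 in ovary and differed by 1.13 in the stressed pituitary, close to the Neat1 value of 1.18. Adamts12 was likewise highest in ovary, at 7.33 to 7.94. Snhg11 was most like Syn2, a synaptic vesicle protein, at 0.90 (0.61 in single mice), and Syn2 was higher in the pituitary pools by 1.16. Miat was most like Ccdc190 at 0.80 and Snhg1 like Actr6 and Bmi1, each at 0.87.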

How the data were processed

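The authors deposited 1 table of log2 signals, 1 value for each of 41345 transcript clusters and array, made with Transcriptome Analysis Console per the submitters' processing notes. The tool's version and how it normalized, corrected background or filtered are not given in the sources used here. Clusters naming exactly 1 gene (23521) gave 22180 genes. For the 1082 genes with several, the cluster with the highest mean was used. No filter was applied, and no detection call was used.

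Comparisons were made with limma 3.58.1 (R 4.3.3, moderated linear models, two-sided, Benjamini-Hochberg over all genes, threshold 0.05), within each tissue for stress (6 arrays, 4 residual degrees of freedom), high against low and pool against single. Tissues were compared on all 18 arrays with the animal or pool as random block (correlation 0.270). Steps were tested on simulated data. The members, lists and the rule for named genes (all members, their 3 most like genes, up to 3 genes per list and tissue by smallest p) were chosen with earlier results of these data known. P-values measure the spread between these samples.

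Same-class control and stress arrays deviated together (correlations 0.359 to 0.727, other classes -0.521 to 0.321), so the ovulation class pairs samples, as read from the class labels and not because animals are shared. Alternatives were that block, other scalings, a level filter, array weights, other clusters and left-out arrays. SEs and intervals given for stress minus control within a tissue come from the fit without that block. Figures were drawn with matplotlib 3.10.9. Sequences are from RefSeq tables of GRCm38.p6, which held starts for 6 of the 7 measured members.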

Additional observations from a re-analysis of the deposited data

Results flagged for a closer look

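The Neat1 level of the stressed hypothalamus pool, 6.91, stood apart from the other 5 hypothalamus arrays, the next of which was at 6.24. The gap was 0.755 of the tissue's whole range, above the critical value of 0.625 for 6 arrays. It was the only such array among 21 sets of 6 arrays (7 members in 3 tissues). For arrays of one kind, chance alone gives about 5% of such sets. Each set here mixes single mice with pools and control with stress, so that rate need not hold. The summed ovary markers of the same pool were at 11.02, against 8.00 to 8.50 in single hypothalami.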

How the results depend on the processing

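Of 1263 member values under an alternative, 124 had another sign: 78 with an array or animal left out, 21 with another cluster and 25 with other settings. Where the member had passed the test, 3 of these values changed sign and 18 kept their sign but lost the call, all between pools and single mice. Where it had not, 5 passed. The 3 sign changes among called values were pool differences of other clusters, chosen after seeing the data: 1.59 for Malat1 in hypothalamus, -0.39 for Snhg11 in pituitary and 0.38 for Snhg17 in ovary. The cause was not tested. The tissue differences of members that passed kept their direction under every setting run. Testing only genes at or above the median level called 875 genes for high against low in hypothalamus and 4155 for pools there, where fewer genes were tested. Leaving out 1 array at a time gave 0 to 1 calls for high against low in hypothalamus and 0 to 27 in ovary, and 92 to 3228, 804 to 4779 and 44 to 2888 for pools in hypothalamus, pituitary and ovary (2709, 3739 and 2913 with all arrays). For each of the 3 differences of the stress effect it gave 0 to 1, and leaving out all pools gave 1 for pituitary minus hypothalamus and 1 for ovary minus hypothalamus. The share of pool calls that were higher was 61.1%, 61.3% and 66.7% in the 3 tissues, 50.8%, 46.5% and 53.2% after quantile normalization and 50.7%, 48.4% and 55.1% after median centring.

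With the ovulation class as a replicate block, stress called 0 genes in each tissue, with 923, 1110 and 2198 at an unadjusted p under 0.05, and no call changed. With class alone in the model and treatment left out (no replicate block across treatments), pools against single mice called 3511, 4005 and 2547 genes and high against low 0 in each tissue. The number of arrays limits the precision throughout.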
